A study of Homo sapiens with 24 samples.

Results

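Engineered human embryonic stem cells grown in the dark beside wild-type cells and then sorted were compared, across all genes, with the same engineered cells grown alone in the dark. The comparison used 6 of the series' 24 libraries, chosen by their titles: 3 of mCherry-positive cells sorted from co-culture (mCherry dark) and 3 of monocultures (Cry2 dark). Both groups were H9 cells, an established embryonic stem cell line, in E8 medium, never illuminated, and both carried the optoWnt construct, Cry2-LRP6c-2A-mCherry with a puromycin resistance gene (PuroR). In co-culture they were mixed 1:1 with wild-type H9 cells carrying eGFP and a neomycin resistance gene (NeoR). Those wild-type cells, sorted from the dark co-culture as GFP-positive (GFP dark, 3 libraries) or grown alone in the dark (wt dark, 3 libraries), served as a parallel comparison. Each replicate pooled 2 to 3 wells, and no source used here says whether replicates came from separate thaws or passages, and p-values measure the spread between these libraries. The promoter of the construct and the number of clones behind each line are likewise not stated there.

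Blue light makes the plant photoreceptor Cry2 cluster, and in the construct it is fused to the cytoplasmic tail of LRP6, through which canonical Wnt ligands signal; without light it is meant to stay inactive. Embryonic stem cells in this state depend on FGF/ERK and NODAL signalling, hold the pluripotency factors high and leave most Wnt target genes low. Cells also answer growth factors, stress and dissociation within minutes through immediate early genes, which encode short-lived transcription factors and RNA regulators.

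Co-culture, sorting and any experiment batch coincide in this design and cannot be told apart. The titles name the co-culture groups as sorted and not the monocultures, and the labels give no sequencing run or date. Depth differed as well, with 44119439 to 51901423 reads assigned to genes in mCherry dark and 28211236 to 31593572 in Cry2 dark. The RNA integrity number was 7.6 to 9.3 in Cry2 dark, the 7.6 being Cry2 dark 3. GC content was 50.47% to 51.0% in Cry2 dark, while 1 library of the parallel comparison, wt dark 1, stood at 33.73%. These quality values were not used for the co-culture libraries, whose columns were matched to a group but not to a numbered replicate. RNA quality of the sorted libraries is thus not given here, and its part in the differences was not tested. Genotype tags in the labels of the monocultures name the opposite genotype from the titles; titles were used here, and both the construct reads and the authors' sample table follow the titles. The first principal component of the 12 dark libraries held 21.1% of their variance and separated the genotypes, and the second held 10.4%. On the second, the 6 sorted co-culture libraries lay at 11.75 to 16.93 and the 6 monocultures at -31.07 to 7.19, without overlap.

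The construct itself was read at a similar level in both groups. Normalised read counts of the Cry2 fusion, given here and below in the order of libraries a, b and c or 1, 2 and 3, were 37421, 37801 and 35820 in mCherry dark, against 35723, 34167 and 37398 in Cry2 dark. The groups overlapped. PuroR was 1989, 2027 and 1588 in mCherry dark, against 1811, 1458 and 1804 in Cry2 dark. Reads of eGFP, the marker of the co-cultured wild-type cells, came to 3.42, 5.58 and 5.54 in mCherry dark, against 0, 0 and 1.49 in Cry2 dark, and to 13540 ± 740 in GFP dark (SD, n = 3). The eGFP level in the 3 mCherry dark libraries was thus 0.0253% to 0.0412% of that in GFP dark. NeoR, the other marker of the wild-type cells, was 0, 5.58 and 1.58 in mCherry dark, against 0 in all 3 Cry2 dark libraries and 594 ± 168 in GFP dark (SD, n = 3), so that the mCherry dark levels were 0%, 0.939% and 0.266% of that in GFP dark, from 8 reads in all. THUMPD3, a gene nearly silent in the engineered line, was 12.8, 16.8 and 20.6 in mCherry dark, against 2.61, 18.4 and 7.44 in Cry2 dark and 1362, 1531 and 1459 in GFP dark. LRP6 shares its tail sequence with the fusion, which makes its own level uncertain, and was 11807, 12221 and 11556 in mCherry dark, against 11474, 11715 and 12501 in Cry2 dark.

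Pluripotency transcripts were high in both groups. POU5F1, the core pluripotency factor, was 100431, 88934 and 93142 in mCherry dark, against 89654, 87343 and 97461 in Cry2 dark, and NANOG was 4141, 3586 and 3802 in mCherry dark, against 3781, 3479 and 3371 in Cry2 dark. The groups overlapped for both genes. TBXT, the primitive streak factor, stayed at or under 8.93 in all 6 libraries, and SOX17, of definitive endoderm, was listed at 0 in all of them. FOXA2, also of the endoderm list, had 7.7, 16.8 and 10.3 in mCherry dark, against 1.3, 5.7 and 3.0 in Cry2 dark. These low counts did not overlap (log2 change 1.61, limma adjusted p = 0.218). Of the 3 endoderm genes tested, 1 had a positive and 2 a negative change, and none passed. Summed over the 15 pluripotency genes listed, the level was 346345 to 362040.2 in mCherry dark and 341888 to 351999 in Cry2 dark. Summed levels of the primitive streak list were 299 to 333 in mCherry dark and 301 to 351 in Cry2 dark, and those of the definitive endoderm list were 57.8 to 78.8 in mCherry dark and 55.1 to 109 in Cry2 dark. These are bulk libraries, in which fewer cells of a type and less RNA per cell cannot be told apart.

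Few transcripts separated engineered cells sorted from co-culture from those grown alone. Of 19051 genes tested with limma, 68 passed a Benjamini-Hochberg adjusted p under 0.05 (0.357%), with 32 higher (0.168%) and 36 lower (0.189%) in mCherry dark. At an unadjusted p under 0.05 there were 2159 genes (11.3%). The changes were small: 75.75% of all genes lay within 0.25 of zero on the log2 scale, the median of all genes was -0.002, and of the 68, 2 genes were more than 2-fold higher and 1 was more than 2-fold lower. The 3 and 3 libraries did not overlap for any of the 68, and they did not overlap for 15.8% of all genes tested. In a fit of all 24 libraries 3 genes passed, and with DESeq2 on the same 12 libraries 227 did. Without Cry2 dark 2 there were 36 calls, and without Cry2 dark 3, the monoculture library of lowest RNA integrity, there were also 36. Without mCherry dark b 16 genes were called higher and 44 lower, against 32 and 36 with it, and without mCherry dark a there were 78 calls. In each of the 6 fits that left out 1 of these libraries, 21 of the 68 passed.

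**Figure D1:**
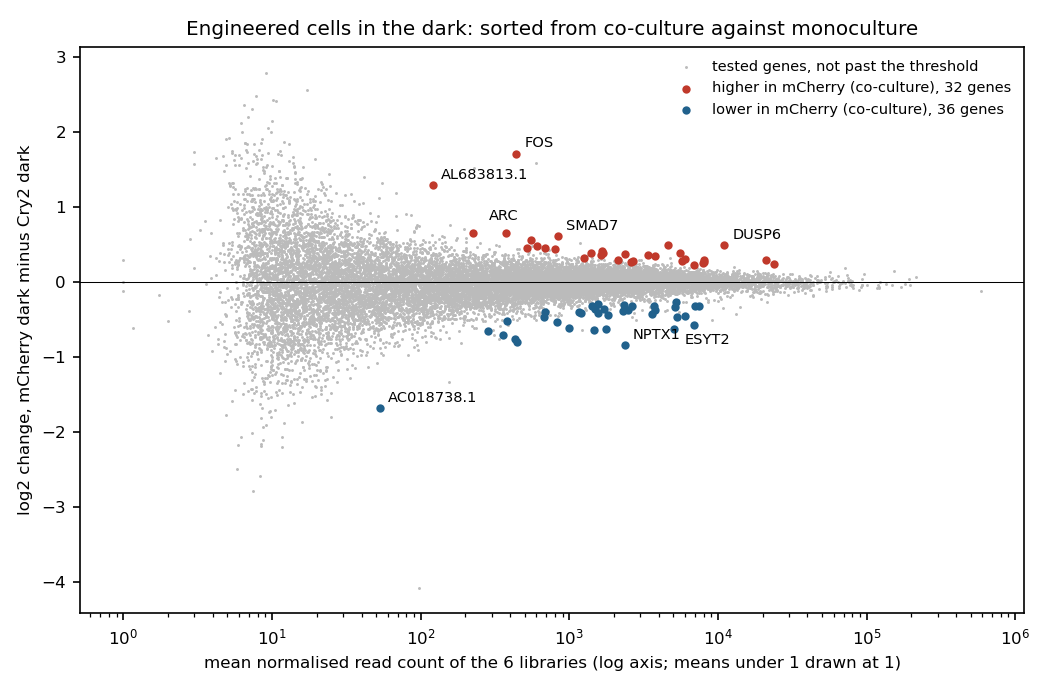
Each point is 1 of the 19051 tested genes, with its mean normalised read count over the 6 engineered dark libraries on a log axis and its log2 change, mCherry dark minus Cry2 dark, on the vertical axis. Red points are the 32 genes higher and blue points the 36 genes lower in mCherry dark, and most lie within 1 log2 unit of zero, FOS at 1.71 and AC018738.1 at -1.68 being the extremes among them.

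Members of the immediate early list rose, 4 of the 16 measured. FOS, a subunit of the AP-1 transcription factor (chromosome 14, 75278774 to 75282230, plus strand, GRCh38), had 964, 625 and 449 in mCherry dark, against 178, 184 and 234 in Cry2 dark. All 3 mCherry libraries lay above all 3 Cry2 libraries, and mCherry dark a was the highest. FOS was 3.43-fold higher in mCherry dark (log2 change 1.71 ± 0.19 SE, limma adjusted p = 6.15e-06). IER2, an immediate early nuclear protein (chromosome 19, 13150415 to 13154908, plus strand), had 6708, 6548 and 5746 in mCherry dark, against 4796, 4586 and 5088 in Cry2 dark, again without overlap, and was 1.31-fold higher (log2 change 0.39 ± 0.07 SE, limma adjusted p = 0.00205). IER3, an early response gene linked to cell survival, had 1890.0, 1839 and 1765 in mCherry dark, against 1394, 1402 and 1475 in Cry2 dark (log2 change 0.36 ± 0.06 SE, limma adjusted p = 0.00402). MYC, the growth-promoting transcription factor that many mitogens induce, had 4230.2, 4221 and 4205 in mCherry dark, against 3353, 3212 and 3418 in Cry2 dark (log2 change 0.34 ± 0.06 SE, limma adjusted p = 0.00357), with the sorted libraries close to each other and above all of Cry2 dark.

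No immediate early gene fell; by unadjusted p under 0.05 there were 8 with a positive change and 0 with a negative one. Over all genes 0.168% rose, and 11.3% had an unadjusted p under 0.05 in either direction. The list's median log2 change was 0.34, against -0.002 over all genes. EGR1, a zinc finger factor of the same class, had 1568, 849 and 371 in mCherry dark, against 259.8, 342 and 202 in Cry2 dark, with a wide spread among the sorted libraries and no overlap, and missed the threshold (adjusted p = 0.0595). JUNB, another AP-1 subunit, had 224, 222 and 149.5 in mCherry dark, against 136, 86.2 and 129.5 in Cry2 dark (adjusted p = 0.0979). ATF3 and NR4A1 had log2 changes of -0.05 and -0.02, and neither passed. ARC, best known as an activity-induced gene of neurons and on no list here, had 499, 438 and 434 in mCherry dark, against 296, 303 and 268 in Cry2 dark and was 1.58-fold higher (log2 change 0.66 ± 0.11 SE, limma adjusted p = 0.00205). ZFP36L1, which binds AU-rich elements and speeds the decay of early response transcripts, had 8766, 8925 and 8949 in mCherry dark, against 7230.5, 7055 and 7380.2 in Cry2 dark (log2 change 0.30 ± 0.05 SE, limma adjusted p = 0.00205).

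Promoter sequence is given for genes of the 2 lists with the most members that rose, immediate early and cholesterol genes. Each line holds the 250 bases before the gene start from RefSeq (GRCh38.p14), read on the gene's strand. RefSeq starts differ from the gene coordinates printed elsewhere here, so the FOS and INSIG1 windows end inside those printed spans. Capitals mark a match, on either strand, to any of the 4 elements searched: the CRE TGACGTCA, the SRF site, the SREBP string TCACNCCAC and CCAAT.
FOS, chr14:75278578-75278827, plus strand: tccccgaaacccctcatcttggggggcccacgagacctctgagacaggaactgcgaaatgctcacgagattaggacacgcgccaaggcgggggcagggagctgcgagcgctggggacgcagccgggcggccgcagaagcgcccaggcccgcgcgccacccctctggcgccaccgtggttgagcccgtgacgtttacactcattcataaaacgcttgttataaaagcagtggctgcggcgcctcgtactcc
IER2, chr19:13150161-13150410, plus strand: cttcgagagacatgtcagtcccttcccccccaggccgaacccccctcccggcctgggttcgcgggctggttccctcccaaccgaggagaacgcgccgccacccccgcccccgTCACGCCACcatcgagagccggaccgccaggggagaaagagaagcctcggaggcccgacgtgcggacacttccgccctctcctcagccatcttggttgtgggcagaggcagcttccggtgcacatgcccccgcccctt
INSIG1, chr7:155297628-155297877, plus strand: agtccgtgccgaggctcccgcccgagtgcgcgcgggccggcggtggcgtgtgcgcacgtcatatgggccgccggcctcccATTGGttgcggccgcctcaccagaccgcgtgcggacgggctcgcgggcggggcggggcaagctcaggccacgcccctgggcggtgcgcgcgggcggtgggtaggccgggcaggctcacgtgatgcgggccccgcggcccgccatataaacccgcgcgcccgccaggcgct
In these windows FOS had no match, IER2 had 1 match to the SREBP string and INSIG1 had 1 match to CCAAT on the opposite strand. Among 35116 promoter windows of the same length, 1.65% held the CRE, 1.16% the SRF site, 0.883% the SREBP string and 32.0% CCAAT. Of 6 candidate members, 3 were used; IER3 is named only. A match describes letters and does not show binding. Only these 250 bases and these 4 elements were searched. Sites farther upstream or with other letters would be missed, so no match does not mean that a promoter lacks them.

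Cholesterol genes formed the second group with several calls. INSIG1, which holds the sterol-sensing complex in the endoplasmic reticulum (chromosome 7, 155297776 to 155310235, plus strand), had 3845, 3651 and 3879 in mCherry dark, against 3086, 2969 and 2853 in Cry2 dark (log2 change 0.35 ± 0.07 SE, limma adjusted p = 0.0147). The lowest mCherry library exceeded the highest Cry2 library. SQLE, which oxidises squalene in the synthesis pathway, had 9091, 8526 and 8736 in mCherry dark, against 7808, 7341 and 6877 in Cry2 dark (log2 change 0.26 ± 0.06 SE, limma adjusted p = 0.0238). Of 18 measured list members 3 rose, 0 fell, and 10 had a positive change at an unadjusted p under 0.05, while the list's median log2 change was 0.13; over all genes 0.168% rose and 11.3% had an unadjusted p under 0.05 in either direction. SREBF2, the pathway's transcription factor, had a log2 change of 0.12 (adjusted p = 0.39). INSIG1 held in 3 and SQLE in 2 of the 6 fits with a library left out; without Cry2 dark 3 the adjusted p of INSIG1 was 0.111 and that of SQLE was 0.171.

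**Figure D2:**
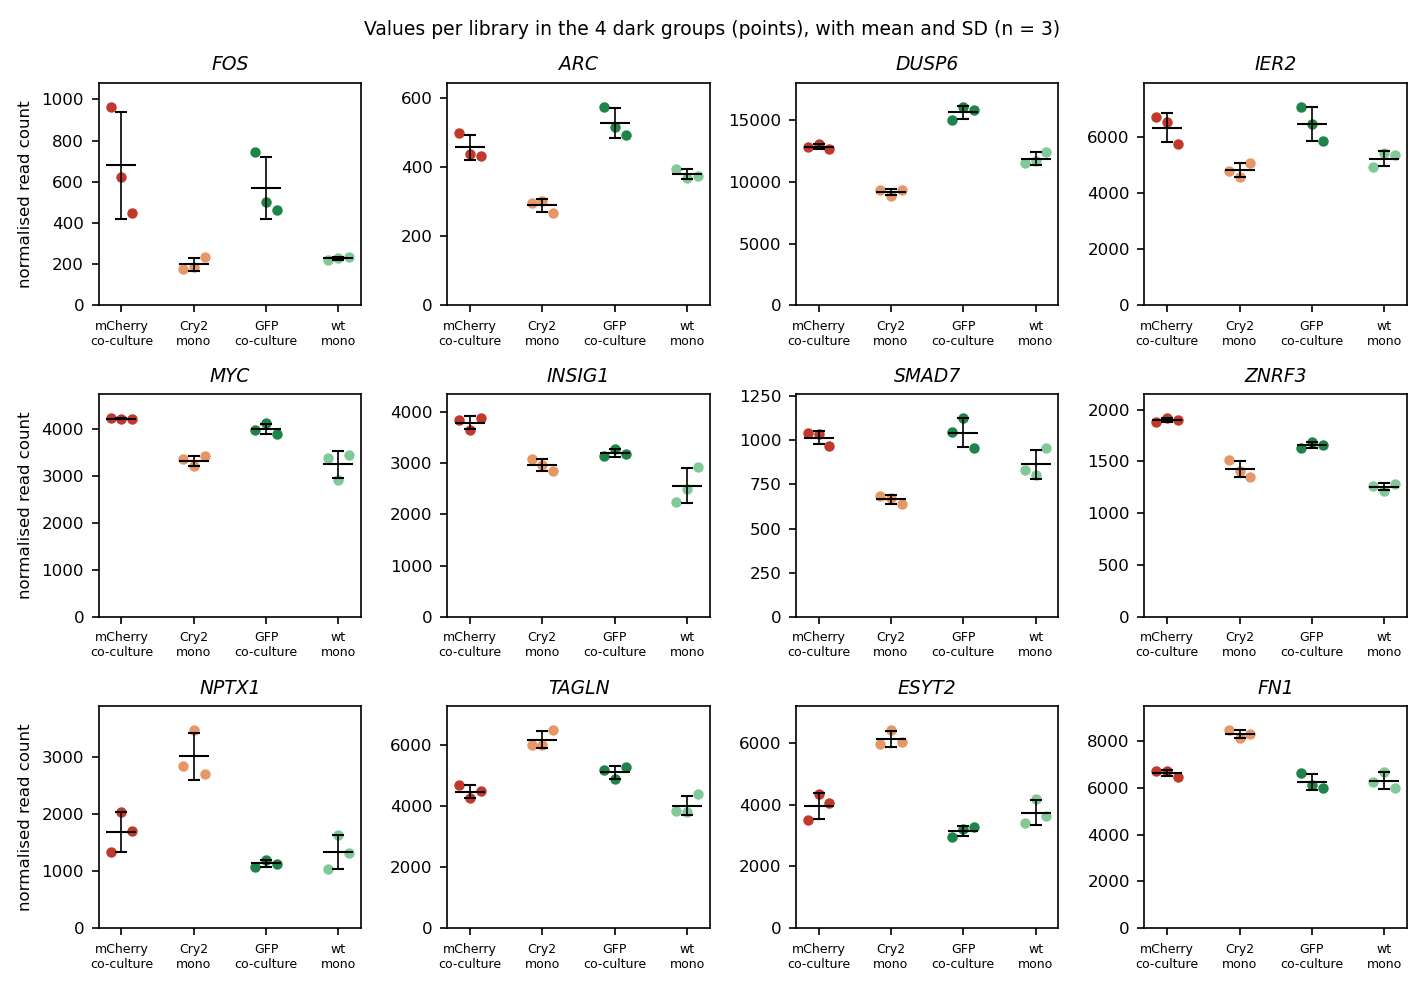
Normalised read counts of 12 genes in the 4 dark groups, from left to right mCherry (co-culture), Cry2 (monoculture), GFP (co-culture) and wt (monoculture), with 1 point per library and the mean ± SD of 3 libraries. The first 8 genes are higher and the last 4 are lower in mCherry than in Cry2 cells without overlap, and those last 4 are highest in Cry2 cells among the 4 groups.

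Feedback regulators of 3 signalling pathways rose, 1 gene from each list. DUSP6, a phosphatase that inactivates ERK downstream of FGF (chromosome 12, 89347232 to 89353271, minus strand), had 12799, 13092 and 12649 in mCherry dark, against 9310.4, 8876 and 9309 in Cry2 dark. Within each group the libraries were close and the groups lay far apart, and DUSP6, 1.40-fold higher, had the smallest adjusted p of the comparison (log2 change 0.49 ± 0.05 SE, limma adjusted p = 6.62e-07). It was the single call among 16 FGF and ERK genes; SPRY2 and SPRY4, other feedback inhibitors, had log2 changes of 0.22 and 0.16 and did not pass. SMAD7, the inhibitory SMAD of TGF-beta signalling (chromosome 18, 48919853 to 48952052, minus strand), had 1039, 1038 and 971 in mCherry dark, against 687, 672 and 638 in Cry2 dark and was 1.53-fold higher (log2 change 0.61 ± 0.09 SE, limma adjusted p = 0.000287). ZNRF3, a ubiquitin ligase that removes Wnt receptors from the cell surface (chromosome 22, 28883592 to 29057487, plus strand), had 1881, 1916 and 1897 in mCherry dark, against 1514, 1412 and 1354 in Cry2 dark and was 1.33-fold higher (log2 change 0.41 ± 0.07 SE, limma adjusted p = 0.00136). None of the other 12 measured Wnt targets passed with limma, edgeR or DESeq2, and none had an unadjusted p under 0.05. AXIN2, the standard feedback target, had 614, 612 and 558 in mCherry dark, against 572, 728 and 644 in Cry2 dark, with overlap between the groups.

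Further rises came from genes with varied roles. AL683813.1, a long noncoding RNA gene on chromosome X, had 118, 189 and 210.4 in mCherry dark, against 79.6, 62.2 and 62.5 in Cry2 dark (log2 change 1.29 ± 0.29 SE, limma adjusted p = 0.0362), and the call held in 1 of the 6 fits with a library left out, the one without mCherry dark a. ARID5A, an RNA-binding protein that stabilises transcripts, rose by 0.65 log2 units, GFOD1 by 0.56, MEX3B, a translational regulator, by 0.48, FOXN2, a forkhead factor, by 0.46, POU3F1, a POU factor of the neural ectoderm list, by 0.46, and ATG14, which starts autophagosomes, by 0.44. These 6 calls held in 1 to 3 of those 6 fits. POU3F1 was the single call among 7 measured neural ectoderm genes. At an unadjusted p under 0.05 with limma, 3 of the 7 had a positive change and 2 a negative one. ZIC2, a zinc finger factor of the pluripotency list, had 6059, 6743 and 5979.7 in mCherry dark, against 5290.4, 4958 and 5274 in Cry2 dark (log2 change 0.27 ± 0.06 SE, limma adjusted p = 0.029), and was the single call among 15 members. ADM, the vasoactive peptide adrenomedullin of the hypoxia list, had 1858, 2062 and 1819.5 in mCherry dark, against 1390.5, 1411 and 1595 in Cry2 dark (log2 change 0.39 ± 0.08 SE, limma adjusted p = 0.0157). It was the single limma call among 15 hypoxia genes, of which 8 had a positive and 7 a negative change. DESeq2 called 1 higher and 1 lower. The call of ZIC2 held in 2 and that of ADM in 3 of the 6 fits with a library left out; the adjusted p was 0.138 for ZIC2 without Cry2 dark 2 and 0.105 for ADM without mCherry dark b.

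NPTX1 had the largest fall among genes whose calls held with each library left out. NPTX1, a secreted neuronal pentraxin (chromosome 17, 80467148 to 80477843, minus strand), had 1334, 2034 and 1711 in mCherry dark, against 2841, 3475 and 2709 in Cry2 dark. The highest mCherry library lay below the lowest Cry2 library, and NPTX1 was 1.78-fold lower (log2 change -0.84 ± 0.12 SE, limma adjusted p = 0.000462). Among the 12 measured NODAL and TGF-beta genes 1 rose, SMAD7, and 1 fell. FN1, the matrix protein fibronectin (chromosome 2, 215360440 to 215436172, minus strand), had 6704, 6717 and 6473 in mCherry dark, against 8474, 8134 and 8276 in Cry2 dark (log2 change -0.32 ± 0.05 SE, limma adjusted p = 0.00148). It was the single call among 17 matrix and integrin genes, of which 13 had a negative change and 6 a negative one at an unadjusted p under 0.05; the list's median was -0.10.

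Single members of the actin, YAP and ATF4 lists also fell. TAGLN, the actin-binding protein transgelin (chromosome 11, 117199321 to 117204782, plus strand), had 4666, 4244 and 4481 in mCherry dark, against 5990.2, 6002 and 6483 in Cry2 dark and was 1.38-fold lower (log2 change -0.46 ± 0.06 SE, limma adjusted p = 5.45e-05). It was the single call among 14 genes of the actin list, of which 7 had a positive and 7 a negative change. At an unadjusted p under 0.05 with limma, 3 had a positive change and 6 a negative one. AMOTL2, an angiomotin relative that restrains YAP and is itself a YAP target, had 3304, 3058 and 2922 in mCherry dark, against 4039.6, 4174 and 4248 in Cry2 dark (log2 change -0.43 ± 0.06 SE, limma adjusted p = 0.000306), while the YAP targets listed as CTGF and CYR61 had log2 changes of -0.14 and -0.09 and did not pass. AMOTL2 was the single call among 10 measured genes of the YAP list, of which 5 had a positive and 5 a negative change. IQGAP3, a scaffold of small GTPases, had 2094, 2204 and 2155 in mCherry dark, against 2815, 2672 and 2904 in Cry2 dark (log2 change -0.38 ± 0.06 SE, limma adjusted p = 0.0013). CHAC1, a glutathione-degrading enzyme induced by ATF4, had 3153, 3360.3 and 3315 in mCherry dark, against 4366, 4053 and 4332 in Cry2 dark (log2 change -0.38 ± 0.06 SE, limma adjusted p = 0.00136), and was the single call among 13 ATF4 response genes. SERPINB9, an inhibitor of granzyme B, had 1201, 1556 and 1429.5 in mCherry dark, against 2096, 2391 and 1964 in Cry2 dark (log2 change -0.63 ± 0.10 SE, limma adjusted p = 0.00159). PPP1R10, a nuclear regulatory subunit of protein phosphatase 1, had 3329, 3344 and 3203 in mCherry dark, against 4028, 4237 and 4021 in Cry2 dark (log2 change -0.32 ± 0.05 SE, limma adjusted p = 0.00205). TXNIP, which binds thioredoxin and limits glucose uptake, had 366, 260.5 and 333 in mCherry dark, against 452, 673 and 506 in Cry2 dark (log2 change -0.76 ± 0.15 SE, limma adjusted p = 0.0157), and its adjusted p was 0.138 without Cry2 dark 2, 0.058 without Cry2 dark 3 and 0.108 without mCherry dark b.

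The neighbours ESYT2 and WDR60 fell together. ESYT2, a tether between the endoplasmic reticulum and the plasma membrane (chromosome 7, 158730995 to 158830253, minus strand), had 3505, 4347 and 4035 in mCherry dark, against 5948, 6414 and 6016 in Cry2 dark and was 1.55-fold lower (log2 change -0.63 ± 0.07 SE, limma adjusted p = 7.5e-06). WDR60, a chain of the ciliary motor dynein-2 (chromosome 7, 158856578 to 158956747, plus strand), lies 26324 bases away on the opposite strand and had 973, 1299.7 and 1167 in mCherry dark, against 1751, 1743 and 1857 in Cry2 dark (log2 change -0.65 ± 0.09 SE, limma adjusted p = 0.000231). Neither pair of groups overlapped. The largest fall by size, of the pseudogene AC018738.1 on chromosome 2, rested on low counts (11.98, 36.3 and 29.3 in mCherry dark, against 53.5, 105 and 83.3 in Cry2 dark; log2 change -1.68 ± 0.39 SE, limma adjusted p = 0.0464), and its call held in 2 of the 6 fits with a library left out, with an adjusted p of 0.166 without mCherry dark a; reads of a pseudogene can come from related genes. Further falls among the 12 largest were those of ZNF155 (-0.70) and ZNF671 (-0.65), zinc finger genes of chromosome 19, CUZD1 (-0.61) and the noncoding LINC01089 (-0.53). These held in 1 to 4 of the 6 fits with a library left out.

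Transcripts of the mitochondrial genome were lower in mCherry dark in direction, with 1 library apart. All 15 tested features had a negative change, with a median of -0.39, and 3 passed, against 0.189% of all genes called lower. Being transcripts of the same genome, they need not change independently. In wild-type cells, GFP dark against wt dark, their median was -0.13. MT-ND4, a subunit of complex I, had 3833, 6718 and 6321 in mCherry dark, against 7672, 8504 and 8313 in Cry2 dark (log2 change -0.58 ± 0.13 SE, limma adjusted p = 0.0492). MT-CO3, of complex IV, had 3878, 5734 and 5588 in mCherry dark, against 6599.9, 6972 and 7016 in Cry2 dark (log2 change -0.46 ± 0.09 SE, limma adjusted p = 0.0157), and MT-RNR2, a ribosomal RNA, had 6624, 5931 and 6189 in mCherry dark, against 7616, 8630.0 and 7202 in Cry2 dark (log2 change -0.32 ± 0.06 SE, limma adjusted p = 0.0132). For MT-ND4 and MT-CO3, mCherry dark a lay well below the other two, and without it the log2 change of MT-ND4 was -0.32 (adjusted p = 0.15). Per the header of the authors' sample table mitochondrial reads were removed before alignment, so these counts are what that step left, and the part of removal in the difference was not tested. Of the 30 nuclear-encoded respiratory chain genes none passed with limma or edgeR, 1 rose with DESeq2, and 4 had an unadjusted p under 0.05 with limma, 2 in each direction.

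Most gene lists held no call. Of the 45 lists, 12 had a member past the threshold, and 18 of the 68 calls were on a list. Over all genes 0.357% were called and 11.3% had an unadjusted p under 0.05, the shares against which the counts of each list stand. Among the 18 p53 targets 0 passed with limma and edgeR (1 in each direction with DESeq2, and 1 in each direction by unadjusted p with limma); CDKN1A, the cell cycle inhibitor p21, had a log2 change of 0.29 (adjusted p = 0.0872). Of the 31 cytosolic ribosomal protein genes listed 0 passed with limma, edgeR and DESeq2, and 2 in each direction had an unadjusted p under 0.05 with limma, a share near that of all genes. RPL28, a ribosomal protein gene on no list, was called higher (log2 change 0.23 ± 0.05 SE, limma adjusted p = 0.0372). The 16 glycolysis enzymes gave 0 calls with the same 3 tools and 1 positive change by unadjusted p. The 14 replication and G1/S genes all had a positive change, with a median of 0.10; 0 passed with limma, 1 rose with edgeR, 2 rose with DESeq2, and 7 had an unadjusted p under 0.05. Of 13 G2/M genes 11 had a negative change, with a median of -0.08; 0 passed with limma, edgeR and DESeq2, and 6 had an unadjusted p under 0.05.

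**Figure D3:**
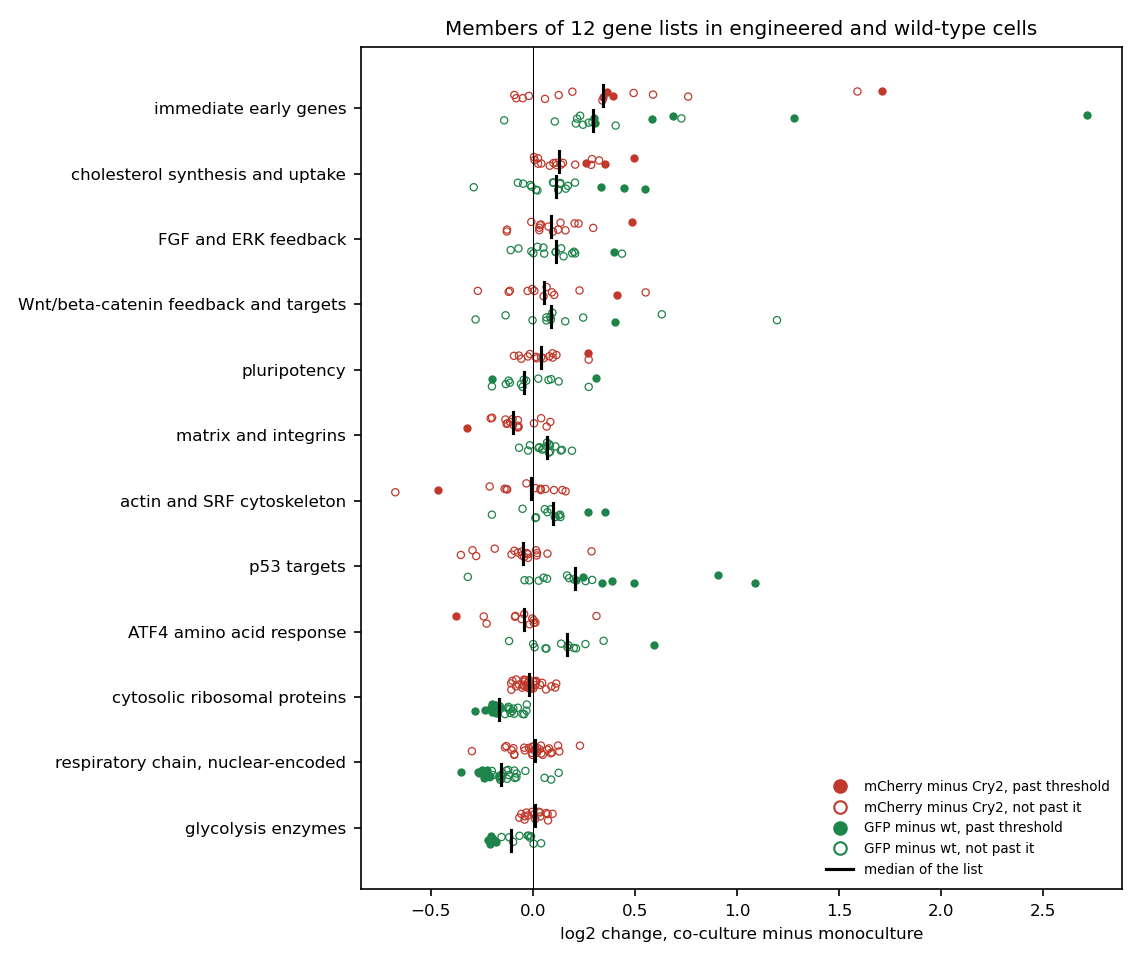
Log2 changes, co-culture minus monoculture, of the measured members of 12 gene lists, with engineered cells (mCherry minus Cry2, red) above wild-type cells (GFP minus wt, green) in each row, filled where past the threshold, and black bars at the medians. Immediate early genes lie to the right in both genotypes (medians 0.34 in engineered and 0.30 in wild-type cells), whereas p53 targets lie to the right in wild-type cells (0.21) and near zero in engineered cells (-0.05).

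Wild-type cells offer the same contrast of culture and sorting without the construct. The 2 comparisons share no library, but mCherry and GFP cells came from the same kind of co-culture, and 1 fit gave both. In GFP dark against wt dark 445 genes passed (2.34%), with 220 higher (1.15%) and 225 lower (1.18%); with reads thinned to the shallowest library there were 309 higher and 103 lower. Of the 68 genes called in engineered cells, 22 were called in the same direction in wild-type cells, which is 32.35% of the engineered calls and 4.944% of the wild-type calls, and 1, TAGLN, in the opposite direction. Of the 32 that rose in mCherry dark, 31 had a positive change in wild-type cells, where 18 were called, and the median log2 changes were 0.38 in engineered and 0.30 in wild-type cells. Of the 36 that fell, 26 had a negative change in wild-type cells, where 4 were called, and the medians were -0.42 in engineered and -0.14 in wild-type cells.

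FOS, ARC, DUSP6 and ZNRF3 also rose in wild-type cells. FOS had 744, 504 and 461 in GFP dark, against 222, 232 and 235 in wt dark (log2 change 1.28, adjusted p = 0.000417), ARC had 574, 515 and 492 in GFP dark, against 395, 369.7 and 374 in wt dark (0.47, adjusted p = 0.0206), and DUSP6 had 15009, 16079 and 15803 in GFP dark, against 11509.8, 11670.2 and 12459 in wt dark (0.40, adjusted p = 1.88e-05). ZNRF3 had 1634, 1686 and 1660.0 in GFP dark, against 1266, 1218 and 1282 in wt dark (0.40, adjusted p = 0.00151). SMAD7 had 1049, 1125 and 959.5 in GFP dark, against 834, 802 and 958 in wt dark (0.27, adjusted p = 0.0892) and did not pass there. The difference of the 2 changes did not pass for any of these 5 (adjusted p = 0.622 for FOS, 0.732 for ARC, 0.68 for DUSP6, 0.983 for ZNRF3 and 0.406 for SMAD7). Of the 36 genes that fell, the 4 also called lower in wild-type cells were ZNF671 (-0.65 in engineered and -0.61 in wild-type cells, adjusted p in wild-type cells = 0.0218), WDR60 (-0.65 and -0.36, adjusted p = 0.029), AMOTL2 (-0.43 and -0.35, adjusted p = 0.00242) and PMEL, a melanosome protein (-0.26 and -0.28, adjusted p = 0.00787). Other falls did not pass there: NPTX1 had 1079.7, 1204 and 1128 in GFP dark, against 1047, 1640.5 and 1310.2 in wt dark (-0.21, adjusted p = 0.446), ESYT2 had 2952, 3208 and 3269 in GFP dark, against 3390.3, 4178 and 3645 in wt dark (-0.25, adjusted p = 0.0661) and FN1 had 6616, 6115 and 6005 in GFP dark, against 6262, 6689 and 5977 in wt dark (-0.01, adjusted p = 0.936). For these 3 the test of the difference did not pass either (adjusted p = 0.202 for NPTX1, 0.161 for ESYT2 and 0.1 for FN1).

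**Figure D4:**
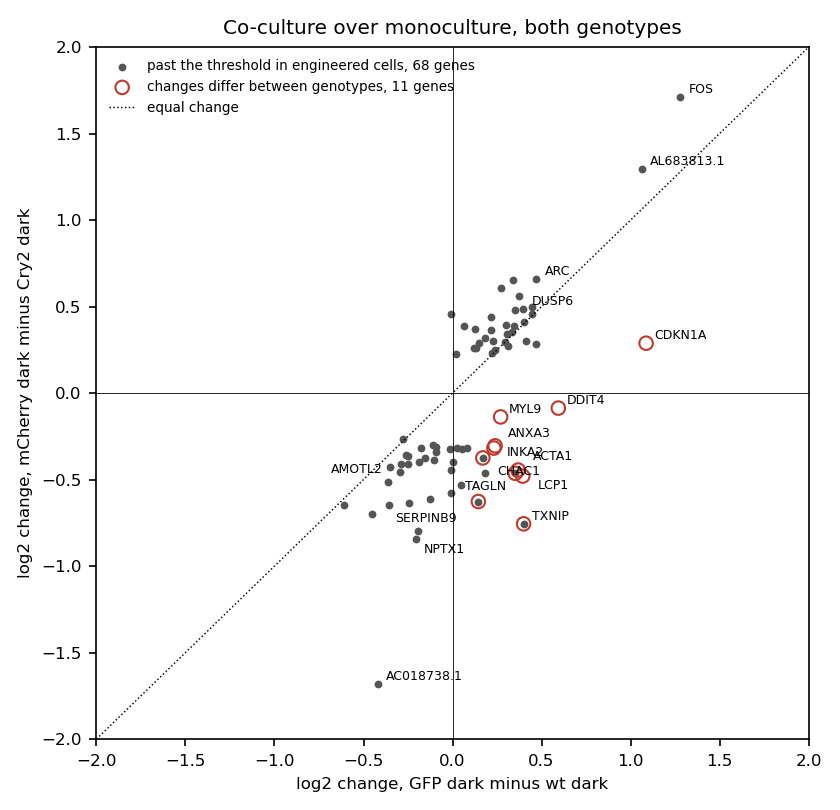
Log2 change in engineered cells (mCherry minus Cry2, vertical) against that in wild-type cells (GFP minus wt, horizontal) for the 68 genes called in engineered cells (grey) and the 11 genes whose changes differ between genotypes (red rings). Rises such as ARC and DUSP6 lie near the dotted line of equal change, while all 11 ringed genes lie below it.

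A test of the difference between the engineered and the wild-type change passed for 11 genes (0.0577%), all with a lower change in engineered cells; DESeq2 called 103, of which 35 had a higher one. Of the 11, TAGLN and MYL9 are on the actin list, CHAC1 and DDIT4 on the ATF4 list and CDKN1A on the p53 list. TAGLN fell in engineered cells and rose in wild-type cells, where it had 5179, 4864 and 5269 in GFP dark, against 3831, 3811 and 4374 in wt dark (difference of log2 changes -0.82 ± 0.08 SE, adjusted p = 3.05e-06). DDIT4, an inhibitor of mTORC1 induced by stress, had 5708, 5722 and 5986 in mCherry dark, against 6595, 5897 and 6029 in Cry2 dark, and 4584, 4585 and 4707 in GFP dark, against 3301, 3008 and 2896 in wt dark (difference -0.68 ± 0.08 SE, adjusted p = 2.67e-05). CDKN1A had 3244, 2863 and 2965 in mCherry dark, against 2752, 2381 and 2307 in Cry2 dark, and 2426, 2158 and 2249.6 in GFP dark, against 1073, 1164 and 982 in wt dark (difference -0.80 ± 0.11 SE, adjusted p = 0.000232). CHAC1 had 2926, 3091 and 3027 in GFP dark, against 2905, 2520.5 and 2628 in wt dark (difference -0.55 ± 0.08 SE, adjusted p = 0.00246). These 4 passed in each of the 12 fits with a library left out, which gave 4 to 16 calls; without wt dark 1, without wt dark 3, without GFP dark b or without mCherry dark c there were 4.

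The same 11 differences can be read as a genotype gap in each culture. The gap in co-culture minus the gap in monoculture is the tested difference itself, so a lower gap in co-culture was fixed by how these genes were chosen and is given as a description. All 11 were higher in Cry2 than in wt monocultures, which the choice of genes also favours, since the monoculture values enter the tested difference. For TXNIP the engineered minus wild-type log2 difference was 0.04 in co-culture and 1.20 in monoculture, and for SERPINB9 it was 0.74 in co-culture and 1.52 in monoculture. For CDKN1A it was 0.41 in co-culture and 1.21 in monoculture. TAGLN had a gap of -0.19 in co-culture and 0.62 in monoculture. Among p53 targets as a list, 7 of 18 rose in wild-type cells with a median of 0.21, against 1.15% of all genes. The difference of the co-culture changes passed for 1 of 18, CDKN1A. At an unadjusted p under 0.05 with limma, the change, not the level, was lower in engineered cells for 11 of 18. Over all genes 0.0577% passed for this difference, and 9.26% had an unadjusted p under 0.05 in either direction.

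**Figure D5:**
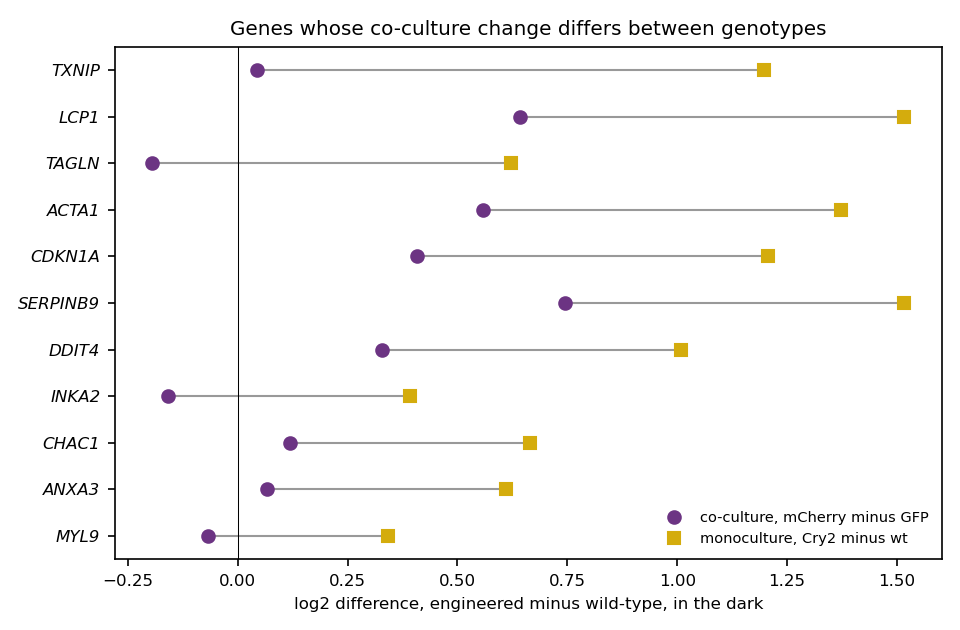
Engineered minus wild-type log2 difference in the dark for the 11 genes, among cells sorted from co-culture (mCherry minus GFP, purple circles) and in monoculture (Cry2 minus wt, yellow squares). The distance from circle to square is the tested difference, so each square lies to the right of its circle by the choice of genes; the circles of TAGLN, INKA2 and MYL9 fall below zero.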

How the data were processed

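Polyadenylated RNA was sequenced. The submitters' processing notes list, without versions or roles, the tools STAR, HTSeq, DESeq, Bowtie2, cutadapt and FastQC and the build GRCh38. The sample table's header instead gives hg19 with 4 extra genes; the conflict was not resolved. Coordinates printed for genes are those of GENCODE 29 on GRCh38, matched by Ensembl identifier for 28124 of 28297 genes. No source states whether counting used strand, so overlapping and antisense genes are uncertain.

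The deposited gene table holds a normalised signal, made by the authors as read counts divided by 1 factor per library: 100.0% of values came out whole within 0.01 after multiplication. The authors' sample table gives the RNA integrity score, total read counts and percent GC and aligned reads, used for the monocultures alone. Monoculture columns were matched by name; co-culture columns only by group, so libraries a, b and c are unnumbered. Pairs within groups differed by 4.2 to 14.33 times the counting noise (chi-square per degree of freedom), so none was a duplicate.

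The planned unit held, and limma 3.58.1 (trend, R 4.3.3) was run on log2(value + 1) over the 12 dark libraries for genes at 10 or more in at least 3 libraries, after a check on simulated data. Fold changes in log2 carry the pseudocount of 1 and understate changes of low genes; folds are ratios of group means. Alternatives were edgeR 4.0.16 (quasi-likelihood), DESeq2 1.42.0, other scalings, filters, pseudocounts and sample sets, thinned reads, GC and length bins, and each library left out. Named genes were the 12 largest rises and falls without overlap, the 10 smallest adjusted p, list members past the threshold and the genotype differences. EGR1, JUNB, ZFP36L1, PPP1R10, PMEL, RPL28 and list members that did not pass were named after their values were seen. Members and lists were chosen with earlier results of these data known, and some genes that the rule selects are not reported here.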

Additional observations from a re-analysis of the deposited data

Results flagged for a closer look

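In 11 genes the co-culture over monoculture change differed between engineered and wild-type cells by a test of the difference itself (limma, adjusted over 19051 genes, 3 libraries a group). Values are the engineered minus the wild-type log2 change. Among cytoskeletal genes these were TAGLN (-0.82, adjusted p = 3.05e-06; log2 change -0.46 in engineered and 0.35 in wild-type cells), ACTA1 (-0.81, adjusted p = 0.0431; log2 change -0.45 in engineered and 0.37 in wild-type cells), MYL9 (-0.41, adjusted p = 0.0431; log2 change -0.14 in engineered and 0.27 in wild-type cells) and LCP1 (-0.87, adjusted p = 0.0364; log2 change -0.48 in engineered and 0.39 in wild-type cells). Transgelin, skeletal actin and a regulatory myosin light chain belong to contractile filaments, and LCP1 bundles actin. Among stress and growth regulators they were CDKN1A (-0.80, adjusted p = 0.000232; log2 change 0.29 in engineered and 1.09 in wild-type cells), DDIT4 (-0.68, adjusted p = 2.67e-05; log2 change -0.09 in engineered and 0.59 in wild-type cells), CHAC1 (-0.55, adjusted p = 0.00246; log2 change -0.38 in engineered and 0.17 in wild-type cells) and TXNIP (-1.16, adjusted p = 0.0299; log2 change -0.76 in engineered and 0.40 in wild-type cells). The other genes were SERPINB9 (-0.77, adjusted p = 0.0299; log2 change -0.63 in engineered and 0.14 in wild-type cells), INKA2 (-0.55, adjusted p = 0.0431; log2 change -0.32 in engineered and 0.23 in wild-type cells) and ANXA3 (-0.54, adjusted p = 0.0299; log2 change -0.30 in engineered and 0.24 in wild-type cells). The wild-type reference includes wt dark 1, whose GC content was 33.73%; with it and Cry2 dark 3 both left out, 4 of the 11 still passed. With reads thinned to the shallowest dark library 24 genes passed, all 11 among them, and without wt dark 1 alone 4 of the 11 passed. Beyond these fits, the part of depth, sorting or the GC content of that library in these differences was not tested.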

How the results depend on the processing

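In engineered cells the counts of higher and lower genes, 32 and 36, became 2 and 1 when all 24 libraries were fitted, 104 and 123 with DESeq2, and 108 and 112 with GC and length bins removed; without a filter on low values 21 were higher. With Cry2 dark 3 and wt dark 1 both left out, a setting chosen after seeing the data, they were 16 and 15. Leaving out each library gave 16 to 41 higher and 16 to 44 lower. In wild-type cells 220 and 225 became 5 and 1 with all 24 libraries, 396 and 486 with DESeq2, 336 and 403 with GC and length bins removed, and 83 and 38 without those 2 libraries; 126 were lower without a filter and 103 with thinned reads. Leaving out each library gave 51 to 155 higher and 47 to 130 lower. For the difference between genotypes, 0 higher and 11 lower became 35 and 68 with DESeq2 and 15 and 48 with GC and length bins removed; 1 was lower with all 24 libraries, 4 without a filter, 24 with thinned reads and 4 without the 2 libraries. Leaving out each library gave 0 to 1 higher and 4 to 16 lower. The cause of these shifts was not tested. For 37 named genes, 557 values under alternatives kept side and direction, 144 fell short of the threshold and 0 reversed. Apart from the fit of all 24 libraries, 21 of the 68 calls passed under every setting. Depth limits what can be seen for genes near the filter of 10. No paired analysis was possible because the co-culture columns carry no replicate numbers.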

Other observations

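On chromosome 7, genes beside the pair ESYT2 and WDR60 were looked at after their values had been seen. NCAPG2, a condensin subunit on the ESYT2 side, had 6700.5, 7126 and 6839.6 in mCherry dark, against 7058, 7503 and 6780.5 in Cry2 dark (log2 change -0.05), with overlap. VIPR2, a neuropeptide receptor on the WDR60 side, had 31.7, 31.6 and 30.9 in mCherry dark, against 62.7, 53.7 and 92.3 in Cry2 dark (log2 change -1.09, limma adjusted p = 0.101), without overlap but at low counts. Both ESYT2 and WDR60 were higher in Cry2 than in wt monocultures, by 0.72 and 0.57 on the log2 scale, and in mCherry than in GFP cells by 0.33 and 0.28.

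SNORD3A, a small nucleolar RNA gene, varied within groups: it had 1.71, 182 and 0 in mCherry dark, against 163, 129 and 112 in Cry2 dark, and 114, 0 and 0 in GFP dark, against 0, 1.25 and 112 in wt dark. The 3 nuclear-retained RNAs listed had negative changes, of -0.53 for NEAT1 and -0.40 for MALAT1, and none passed with limma; 2 had an unadjusted p under 0.05.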
